A study of Homo sapiens with 27 samples.

Results

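Set 2 consisted of 3 RNA-seq libraries of MDA-MB-231 cells in which dCas9-KRAB was directed to the promoter of ZEB1, and it was compared with the 3 No gRNA libraries of the same line. These 6 libraries were the members, of 27 libraries in the series and 12 of MDA-MB-231, and they were chosen by their sample labels. MDA-MB-231 is a human triple-negative breast cancer (TNBC) line of mesenchymal appearance. Both groups carried the lentiviral vector pLV-KRAB, which encodes a catalytically dead Cas9 fused to the KRAB repressor domain, and both were selected in puromycin. No gRNA cells, the empty vector control (EVC), received no targeting gRNA. Wild type cells were not transduced, and set 1 is the other ZEB1-targeted group, each with 3 libraries. The labels of set 2 conflict, since its sample titles name all 4 gRNAs and its data columns name gRNA 4 alone, while set 1 has the opposite conflict. Set 2 was therefore not assigned to either. The study's methods call replicates individual clones, while the sample titles call them biological replicates, and which holds here is not settled. A value that stands apart in 1 library may therefore belong to 1 clone. The p-values below measure the spread between these libraries. The data columns of all 12 MDA-MB-231 libraries share the prefix B2, which was taken as the same sequencing run. Their sample titles name no run.

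ZEB1 is a zinc finger transcription factor that binds E-box sequences (CACCTG, or CAGGTG on the other strand) and recruits corepressors such as CtBP. It is best known for repressing epithelial genes, among them cell junction, polarity and splicing genes, during epithelial-mesenchymal transition (EMT). The KRAB domain recruits TRIM28 and histone methyltransferases, and a dCas9-KRAB fusion placed at a start site silences the gene beneath it. Microarray and sequencing studies class MDA-MB-231 among the mesenchymal breast cancer lines, with high vimentin and CD44 and little E-cadherin.

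The deposited values were estimated counts per gene, with 15463351 to 17288989 counts in each of the 6 libraries. They are given here as CPM, the counts of a gene per 1000000 counts of its library after TMM scaling, which is not corrected for gene length, so that levels are compared between libraries and not between genes. A gene was termed called when its difference passed voom-limma with TREAT, which tests for a change beyond 1 on the log2 scale, at a Benjamini-Hochberg adjusted p-value under 0.05. Adjusted p-values below are from that TREAT fit over 15721 genes unless the moderated test against 0 is named. The markers given here had levels described for mesenchymal breast cancer lines. They do not tell MDA-MB-231 apart from other lines of that kind. VIM (vimentin, an intermediate filament of mesenchymal cells) was at 2362 to 2481 CPM in No gRNA and 2555 to 2623 in set 2, and CD44 (a hyaluronan receptor) was at 1867 to 1929 and 2352 to 2374. The hormone receptor genes ESR1 and PGR stayed under 1 CPM in all 6 libraries. CDH1 (E-cadherin) was at 0.196, 0.279 and 1.03 CPM in No gRNA. ERBB2, CD24, CLDN3, CLDN4 and CLDN7 were also planned as low markers, and their levels are not given here. For CD24 the log2 fold change of set 2 over No gRNA was 1.29 (moderated adjusted p = 1.79e-05), and TREAT did not call it.

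Against No gRNA, 273 genes were called higher in set 2 (1.74% of those tested) and 378 were called lower (2.40%). The moderated test against 0 from the same fit called 4293 higher (27.3%) and 3942 lower (25.1%). All 273 and all 378 had values that did not overlap between the groups, where 30.4% of all genes tested lay wholly above No gRNA and 29.3% wholly below. Protein-coding genes made up 244 of the higher genes and 323 of the lower ones, and lncRNAs made up 23 and 38. In No gRNA, 11 of the higher genes had 3 counts or fewer in every library, and in set 2, 25 of the lower genes did. The median log2 fold change over all genes tested was -0.01. The No gRNA and wild type groups stood far apart for many genes. For the 378 lower genes the median log2 fold change was -2.15 against No gRNA and -0.50 against wild type, and for the 273 higher genes it was 1.91 and 1.21. With the genes at 3 counts or fewer set to their bounds, the medians against No gRNA were -2.13 and 1.91. Wild type values or calls are therefore given beside many of the results. A change given without them is one against No gRNA alone.

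**Figure D1:**
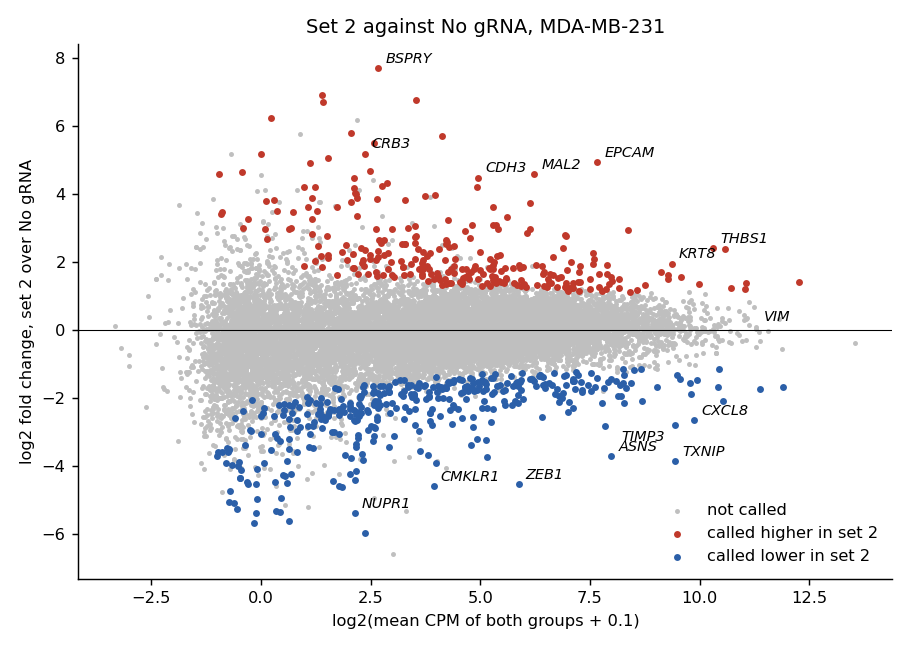
Log2 fold change of set 2 over No gRNA (vertical axis) against the log2 of the mean CPM of both groups (horizontal axis, 0.1 added) for the 15721 genes tested, each point a gene. Red points are the 273 genes called higher and blue points the 378 called lower. ZEB1 lies at -4.54 and ATP2C2 at 6.77, and genes at 3 counts or fewer in every library of a group, BSPRY among them, are drawn at fitted values that are not bounds.

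The targeted gene was low in every set 2 library. ZEB1 (ENSG00000148516, chromosome 10, 31318495 to 31529814, plus strand, GRCh38) was at 106, 124 and 106 CPM in the No gRNA libraries and 5.09, 3.84 and 5.60 in those of set 2. Wild type libraries held 78.2, 69.5 and 73.9 CPM. All set 2 values lay below every library of both controls. The log2 fold change was -4.54 against No gRNA (SE 0.17, adjusted p = 8.17e-08) and -3.94 against wild type (adjusted p = 1.15e-06). ZEB1-AS1 (ENSG00000237036, chromosome 10, 31206278 to 31320447, minus strand), a lncRNA read from the opposite strand whose gene overlaps the start of ZEB1, was at 7.43, 8.61 and 5.59 CPM in No gRNA and 1.02, 0.598 and 2.35 in set 2. It fell by 2.64 on the log2 scale (SE 0.42, adjusted p = 0.0339). ZEB1-AS1 lost its call without No gRNA replicate 1 or 2 or set 2 replicate 1 or 2 (adjusted p between 0.0703 and 0.189). Against wild type, at 7.25, 5.90 and 5.26 CPM, it was not called (log2 fold change -2.42, adjusted p = 0.197). Since the strandedness of the libraries was not given in the sources used here, reads from the overlap of ZEB1 and ZEB1-AS1 cannot be told apart.

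The ZEB1 promoter is shown because it is the region dCas9-KRAB was directed to, and because it holds copies of the E-box that ZEB1 protein binds. The window runs from 250 bases before to 50 after the start site (RefSeq, GRCh38.p14, chr10:31318966-31319265, plus strand), with the E-box in capitals on either strand.
ZEB1: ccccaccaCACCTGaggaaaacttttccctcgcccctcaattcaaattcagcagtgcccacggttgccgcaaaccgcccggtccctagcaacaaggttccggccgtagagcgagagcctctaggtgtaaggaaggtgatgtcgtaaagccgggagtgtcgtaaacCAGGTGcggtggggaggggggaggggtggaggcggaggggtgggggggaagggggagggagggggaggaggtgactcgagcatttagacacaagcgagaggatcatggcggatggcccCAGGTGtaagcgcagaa
It holds 3 copies, which begin at positions -242, -85 and 34 counted from the start site.

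Among the other EMT transcription factors, 0 of 4 tested were called by TREAT, and the moderated test called 1 of them, SNAI2. SNAI2 (SLUG) was at 15.8, 16.8 and 17.6 CPM in No gRNA and 38.2, 38.99 and 38.8 in set 2, without overlap, and its log2 fold change was 1.21 (SE 0.068, TREAT adjusted p = 0.108, moderated adjusted p = 6.19e-08). Set 2 lay below set 1 for this gene, where the libraries held 97.7, 95.9 and 95.3 CPM (log2 fold change of set 2 over set 1 -1.32, adjusted p = 0.002). ZEB2, the close paralog of ZEB1, was uneven within set 2, with 71.2, 13.6 and 15.9 CPM in replicates 1, 2 and 3 against 31.99, 27.7 and 27.4 in No gRNA, so the first replicate lay above every control library and the others below. Its log2 fold change was -0.21 (SE 0.45, adjusted p = 1). SNAI1 and TCF4 had log2 fold changes of 0.33 and -0.24. Too few counts were present to test TWIST1, TWIST2, PRRX1 and FOXC2.

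Genes of the epithelial lists were among those that rose. Of the 99 tested members of 9 epithelial lists, 28 were called higher (28.3%, against 1.74% of all genes) and 3 were called lower. Against wild type, 29 were called higher and 0 lower. The lists were chosen with earlier results known and contain genes long described as ZEB1-repressed, so that their direction is a description. Among the epithelial lists, the one with the most calls was that of epithelial polarity and trafficking, in which 10 of 18 tested genes rose and 0 fell, with a median log2 fold change of 2.08. The moderated test called 14 of the 18 higher, beside 27.3% of all genes.

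BSPRY, a B-box and SPRY domain protein of epithelia, was at 0.0599, 0.0581 and 0 CPM in No gRNA and 12.6, 13.7 and 11.3 in set 2. Since no No gRNA library held more than 3 counts, it was at least 73.7-fold higher (adjusted p = 7.14e-06). LAD1 (ladinin, a basement membrane filament protein) had 0 counts in every No gRNA library and 2.09, 1.87 and 2.47 CPM in set 2, at least 12.6-fold higher. CRB3, the Crumbs subunit that marks the apical membrane, went from 0.236, 0.257 and 0.230 CPM to 10.5, 9.51 and 9.45, a log2 fold change of 5.19 (SE 0.43, adjusted p = 4.29e-05). MAL2, which carries proteins across polarized cells, went from 5.49, 5.33 and 6.88 CPM to 143, 124 and 163 (log2 fold change 4.59, SE 0.23, adjusted p = 8.13e-07). All 4 genes were also low in wild type. Its means were 0.0426, 0.0111, 0.119 and 2.70 CPM, and each gene was also called against wild type. MAP7 (a microtubule-associated protein), CDS1, SH2D3A, RAB17, LLGL2 and AP1M2 (the adaptor subunit of basolateral sorting) made up the rest of the 10, with log2 fold changes between 1.78 and 3.97. LLGL2 and AP1M2 were not called against wild type, and AP1M2 was at 44.98 CPM in set 2 and 48.6 in wild type. The antisense neighbour DENND1C of CRB3 also had a higher value in set 2 (11.5 CPM from 0.772), and without strand the reads of their overlap cannot be divided.

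In the tight junction list 5 of 17 were called higher and 1 lower. F11R (the adhesion molecule JAM-A) rose from 66.2, 58.02 and 69.99 CPM to 314, 308 and 321 (log2 fold change 2.28, SE 0.060, adjusted p = 6.86e-08). MARVELD3, a tight junction membrane protein, was at 0.216, 0.590 and 0.09997 CPM in No gRNA and at 4.51, 3.81 and 3.61 in set 2 (log2 fold change 3.89, adjusted p = 0.00326). LSR, which organizes tricellular junctions, rose from 57.9, 57.4 and 57.9 CPM to 172, 162 and 183 (1.57, adjusted p = 0.00211). OCLN (occludin) also rose, by 1.42 on the log2 scale. CLDN1 (claudin-1) went the other way, from 152, 154 and 144 CPM to 47.8, 49.7 and 48.9 (log2 fold change -1.62, SE 0.058, adjusted p = 2.28e-05). Wild type cells held 30.4, 31.2 and 29.8 CPM of CLDN1, below set 2, so the sign was opposite against that control (0.68, adjusted p = 1).

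Of 10 desmosome genes 3 were called higher and the moderated test called 9 higher, beside 1.74% and 27.3% of all genes. These 3 were PKP3 (plakophilin-3), from 35.1, 39.1 and 36.6 CPM to 199, 203 and 193 (log2 fold change 2.43, SE 0.068, adjusted p = 6.86e-08), DSP (desmoplakin), at 1.45 (adjusted p = 0.00348), and DSC2 (desmocollin-2), at 1.30 (adjusted p = 0.0441). DSC2 lost its call without No gRNA replicate 1, 2 or 3 or set 2 replicate 1 or 2 (adjusted p between 0.0659 and 0.163). The hemidesmosome list had 0 of 9 called in either direction against No gRNA. The moderated test called 3 of the 9 higher and 2 lower, beside 27.3% and 25.1% of all genes. Against wild type 2 of the 9 were called higher, beside 1.22% of all genes. Between the sets 2 were called lower in set 2, beside 1.86% of all genes.

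Of the cadherins, P-cadherin and not E-cadherin passed the test. CDH3 (P-cadherin) rose from 4.09, 2.96 and 1.42 CPM to 53.9, 64.3 and 57.4 (log2 fold change 4.49, SE 0.26, adjusted p = 2.90e-06), and wild type libraries held 0.529, 0.848 and 0.555. It was the only called gene among 8 of the adherens junction list. CDH1 (E-cadherin) was at 2.79, 5.23 and 1.30 CPM in set 2, above every No gRNA library, with a log2 fold change of 2.72 and an SE of 0.99 (TREAT adjusted p = 0.686, moderated adjusted p = 0.0384). Set 1 held 19.3, 24.6 and 10.5 CPM, and the difference between the sets had an adjusted p of 0.0882. The neural cadherin CDH2, whose gain usually accompanies EMT, was at 0.494, 0.260 and 0.130 CPM in No gRNA and 0.926, 0.971 and 1.94 in set 2 (log2 fold change 2.09, adjusted p = 0.755), and the catenins CTNNA1, CTNNB1 and CTNND1 had log2 fold changes between -0.17 and 0.08.

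EPCAM, an epithelial adhesion molecule, had the smallest adjusted p of the epithelial genes named. It was at 12.7, 11.1 and 14.5 CPM in No gRNA, 13.8, 13.6 and 11.5 in wild type and 388, 393 and 397 in set 2 (log2 fold change 4.95, SE 0.089, adjusted p = 1.13e-10). SPINT1, an inhibitor of membrane serine proteases, rose from 13.99, 16.4 and 17.8 to 114, 123 and 114 CPM (2.87, adjusted p = 1.34e-07), and the protease PRSS22 from 1.44, 2.17 and 0.996 to 8.88, 8.55 and 6.29 (2.41, adjusted p = 0.0178). PRSS22 lost its call without No gRNA replicate 1 or 3 or set 2 replicate 1 or 2 (adjusted p between 0.052 and 0.0971). SPINT2 and ST14 of the same list were not called, with log2 fold changes of 0.55 and -0.78.

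Keratins were split. KRT8 rose from 266, 264 and 277 CPM to 1089.8, 1024 and 1023 (log2 fold change 1.96, SE 0.037, adjusted p = 1.53e-08), and its partner KRT18, the other keratin of simple epithelia, from 377, 387 and 383 to 1154, 1129 and 1134 (1.57, adjusted p = 6.86e-08). Wild type levels were between these, at 657, 638 and 654 CPM of KRT8 and 600.5, 621 and 628 of KRT18, and neither gene was called against wild type. The models of KRT8 and KRT18 overlap on opposite strands, so without strand the reads of their overlap cannot be divided between them. The hair keratins KRT81 and KRT86 fell, by 2.15 and 2.63 on the log2 scale (adjusted p = 1.35e-06 and 2.51e-05). Neither was called lower against wild type. KRT81 and KRT86 are near-identical and their models overlap, so that the split of reads between them is uncertain. KRT7 and KRT19 had log2 fold changes of 0.84 and 0.89 and were called by the moderated test only.

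Among epithelial transcription and splicing factors 3 of 15 were called, all higher. ESRP1, which drives epithelial splice forms, rose from 2.27, 4.38 and 2.80 CPM to 58.1, 68.1 and 45.3 (log2 fold change 4.21, SE 0.38, adjusted p = 1.36e-04). FOXA1, a luminal pioneer factor, rose from 0.656, 1.03 and 0.934 to 3.77, 3.15 and 3.93 (2.03, adjusted p = 0.0115) and was not called against wild type. FOXA1 lost its call without No gRNA replicate 1 (adjusted p = 0.0691). ESRP2, ELF3 and EHF were not called and had log2 fold changes of -0.51, -0.56 and -0.79, below 0. The lowest log2 fold change of the list was -2.72, in a gene that was not called. The moderated test called 7 genes of the list higher and 3 lower, beside 27.3% and 25.1% of all genes. The EMT-opposing factor OVOL2 was at 0, 0.104 and 0 CPM in No gRNA and 1.45, 1.76 and 7.25 in set 2, and it was not called (adjusted p = 0.0522). Since no No gRNA library held more than 3 counts of it, its set 2 mean was at least 20.5-fold higher.

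The promoter windows of 4 of the rising epithelial genes are shown because each holds the E-box that ZEB1 binds. They are the called genes of the epithelial lists with the largest fitted log2 fold change among those whose window was in the RefSeq table and held the motif. Of the 28 called genes, 15 had a window in that table, and 11 of the 15 held CAGGTG on either strand. Each window runs 5′ to 3′ on the strand of its gene, from 250 bases before to 50 after the start site, with the E-box in capitals (GRCh38.p14). BSPRY is at chr9:113349291-113349590 on the plus strand, LAD1 at chr1:201399275-201399574 on the minus strand, CRB3 at chr19:6464021-6464320 on the plus strand and MAP7 at chr6:136550373-136550672 on the minus strand.
BSPRY: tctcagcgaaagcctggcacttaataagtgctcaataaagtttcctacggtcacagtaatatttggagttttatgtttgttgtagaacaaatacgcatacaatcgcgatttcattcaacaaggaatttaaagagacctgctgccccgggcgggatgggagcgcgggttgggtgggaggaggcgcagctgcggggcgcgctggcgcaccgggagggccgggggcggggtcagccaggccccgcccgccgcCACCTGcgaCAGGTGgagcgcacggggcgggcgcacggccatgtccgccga
LAD1: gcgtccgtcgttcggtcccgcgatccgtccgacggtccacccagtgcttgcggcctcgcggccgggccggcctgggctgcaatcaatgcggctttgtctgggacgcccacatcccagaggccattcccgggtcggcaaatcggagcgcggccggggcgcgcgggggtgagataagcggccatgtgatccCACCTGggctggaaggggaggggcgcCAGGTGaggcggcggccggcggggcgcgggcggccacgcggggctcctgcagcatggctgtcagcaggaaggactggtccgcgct
CRB3: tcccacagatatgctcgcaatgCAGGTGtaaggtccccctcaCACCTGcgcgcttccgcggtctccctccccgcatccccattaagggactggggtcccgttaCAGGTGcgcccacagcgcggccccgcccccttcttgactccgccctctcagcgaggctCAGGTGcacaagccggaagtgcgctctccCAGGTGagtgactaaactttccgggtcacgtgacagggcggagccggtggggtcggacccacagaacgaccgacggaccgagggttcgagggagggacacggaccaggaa
MAP7: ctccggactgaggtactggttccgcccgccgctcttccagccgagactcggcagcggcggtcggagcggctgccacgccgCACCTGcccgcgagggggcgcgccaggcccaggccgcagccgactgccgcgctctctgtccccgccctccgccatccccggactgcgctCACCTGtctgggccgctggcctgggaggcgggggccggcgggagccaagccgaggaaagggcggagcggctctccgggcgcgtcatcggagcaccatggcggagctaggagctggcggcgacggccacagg
BSPRY has 2 copies at its start site, beginning at positions -1 and 9. LAD1 has 2, at -61 and -35, and CRB3 has 5, of which the nearest to the start site is at -60. MAP7 has 2, at -170 and -81.

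CAGGTG on either strand was in 18.4% of the 11401 windows of genes tested and in 20.5% of all 27305 genes with a window. It was in 53 of 187 windows of genes called higher against No gRNA (28.3%) and in 47 of 253 of genes called lower (18.6%). Of the genes called higher against both controls, 38 of 72 windows held it (52.8%). Of those called higher against No gRNA and not against wild type, 15 of 115 did (13.0%). The shorter motif CACCT on either strand, which any CACCTG contains, was in 48.8% of windows of genes tested, 59.4% of genes called higher and 50.2% of genes called lower. These shares are descriptions of the letters in a window, with no test, and a window was matched for 187 of the 273 higher genes and 253 of the 378 lower ones.

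**Figure D2:**
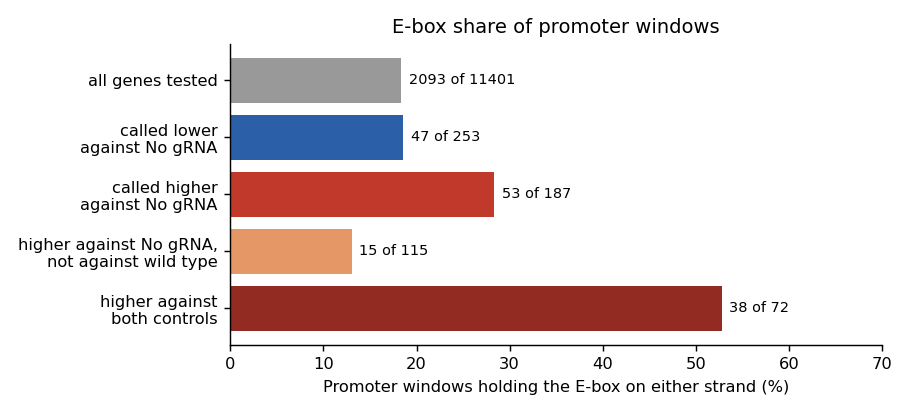
Percent of promoter windows (horizontal axis) that hold the E-box on either strand, in all genes tested and in sets of genes called in set 2, with the number of windows beside each bar. Genes called higher against both controls stand at 52.8%, and all genes tested at 18.4%.

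Outside the epithelial lists the largest rises included KDF1, ATP2C2, ZBED2, DAPP1 and LRRN4. KDF1 (keratinocyte differentiation factor) had 3 counts or fewer in every No gRNA library and 5.65, 4.37 and 5.09 CPM in set 2, at least 29.7-fold higher. ATP2C2, a calcium and manganese pump of the secretory pathway, rose from 0.166, 0.576 and 0.0451 CPM to 27.5, 20.7 and 19.6 (log2 fold change 6.77, SE 0.64, adjusted p = 9.47e-05). ZBED2, a zinc finger transcription factor, was at 0.116, 0 and 0 CPM in No gRNA and at 5.02, 5.37 and 4.87 in set 2, at least 29.96-fold higher. DAPP1, an adaptor of phosphoinositide signaling, reached 11.2, 10.3 and 10.2 CPM (4.69, adjusted p = 1.54e-04), and LRRN4, a neuronal leucine-rich repeat protein, 6.47, 8.77 and 9.22 CPM (4.49, adjusted p = 3.92e-05). All 5 were called against wild type too. The gene model ENSG00000260342, which spans RPS15A and ARL6IP1, also had a place among the largest rises, but its No gRNA values were 0.00501, 2.08 and 0 CPM and wild type libraries held 13.4, 7.23 and 6.87, so its sign was opposite against wild type (-0.29). ENSG00000260342 lost its call without No gRNA replicate 1 or 3 or set 2 replicate 1, 2 or 3 (adjusted p between 0.0627 and 0.238).

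Of 9 mesenchymal cytoskeleton genes 1 was called lower and 1 higher. The moderated test called 3 of the 9 lower and 5 higher, beside 25.1% and 27.3% of all genes. VIM had a log2 fold change of 0.10 (SE 0.019, TREAT adjusted p = 1) that had the opposite sign against wild type (-0.02). S100A4, a calcium-binding protein of motile cells, fell from 20.7, 18.3 and 20.4 CPM to 3.38, 2.46 and 2.72 (log2 fold change -2.79, SE 0.15, adjusted p = 8.20e-06), and wild type held 17.3, 16.8 and 16.9. TAGLN (transgelin, an actin-binding protein) rose from 3.48, 4.10 and 3.66 to 20.2, 21.4 and 17.996 (2.40, adjusted p = 6.98e-04). In the matrix and adhesion list 3 of 12 were called lower and 1 higher, and the moderated test called 7 lower and 3 higher. FN1 (fibronectin) fell from 1497, 1428 and 1309.8 CPM to 399, 407 and 337 (-1.89, adjusted p = 1.03e-04), SPARC from 1.56, 4.71 and 1.75 to 0.117, 0.317 and 0.0496 (-3.86, adjusted p = 0.0451) and LOX, the collagen crosslinking oxidase, from 498, 509 and 493 to 219.5, 213 and 228 (-1.19, adjusted p = 0.00198). SPARC lost its call without No gRNA replicate 3 or set 2 replicate 1, 2 or 3 (adjusted p between 0.0649 and 0.221). THBS1 (thrombospondin-1) rose from 354, 468 and 389 CPM to 2163, 2101 and 2160.00 (2.42, SE 0.075, adjusted p = 1.72e-07). Wild type cells held less FN1 and LOX than set 2, at 224 to 263 and 148 to 154 CPM, while THBS1 was called higher against wild type as well.

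Of 13 metalloproteinases and inhibitors 4 fell and 1 rose, and the median log2 fold change was -0.94. The moderated test called 7 of the 13 lower and 1 higher, beside 25.1% and 27.3% of all genes. TIMP3, a matrix-bound metalloproteinase inhibitor, fell from 1210.5, 1223 and 1228 CPM to 178, 172 and 177 (-2.80, SE 0.025, adjusted p = 2.19e-12), and it was called lower against wild type, which held 506, 508 and 505. MMP10 (stromelysin-2) fell from 5.55, 6.42 and 8.63 to 0.4002, 0.592 and 0.527 CPM (-3.68, adjusted p = 4.97e-04) and MMP2 (gelatinase A) from 7.86, 6.998 and 5.45 to 0.743, 1.25 and 1.58 (-2.53, adjusted p = 0.00519). For these, wild type was at the level of set 2, with means of 0.593 and 1.18 CPM. MMP1 (interstitial collagenase) was the other fall, at -1.66, and MMP15, a membrane-type enzyme, rose from 8.94, 8.17 and 6.71 to 31.1, 29.8 and 42.8 CPM (2.10, adjusted p = 0.0095). MMP15 lost its call without No gRNA replicate 3 (adjusted p = 0.0555). Of the 4 falls, TIMP3 alone was called lower against wild type. Among 9 integrins only ITGB3 (the β3 chain) was called, from 10.1, 11.3 and 9.88 CPM to 1.67, 0.8002 and 0.878 (-3.26, adjusted p = 0.00124), and among 13 collagens only COL6A1, at -1.49 (adjusted p = 0.00262). Wild type cells held a mean of 1.46 CPM of ITGB3 and 107 of COL6A1. By the moderated test 5 integrins were lower and 0 higher, and 4 collagens were lower and 5 higher.

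Few of the falls held against both controls. Of the 378 genes called lower against No gRNA, 21 were also called lower against wild type (0.134% of all genes), whereas 118 of the 273 higher genes were called higher against both (0.751%). These comparisons share the set 2 libraries. Against wild type alone, 192 genes were called higher in set 2 (1.22%) and 35 lower (0.223%). ZEB1, S100A4 and TIMP3 were among the 21. CMKLR1, the chemerin receptor, fell from 25.8, 30.99 and 30.6 CPM in No gRNA and 15.03, 9.03 and 7.90 in wild type to 1.91, 0.990 and 0.830 in set 2 (log2 fold change -4.59 against No gRNA, SE 0.44, adjusted p = 1.98e-04). CST2, a secreted cysteine protease inhibitor, was at 7.42, 7.03 and 8.15 CPM in No gRNA, at 3.36, 2.62 and 2.29 in wild type and at 0.303, 0.420 and 0.396 in set 2 (-4.24, adjusted p = 3.04e-05). The related leukocyte inhibitor CST7 was at 10.9, 9.33 and 10.8 CPM, 8.49, 8.71 and 7.53 and 1.39, 1.49 and 1.32 in the same groups (-2.85, adjusted p = 2.55e-05). CD22, a sialic acid-binding receptor best known from B cells, was at 33.1, 26.3 and 28.4 CPM in No gRNA, 8.99, 10.04 and 9.62 in wild type and 2.88, 1.16 and 2.11 in set 2 (-3.91, adjusted p = 1.54e-05). EGR1, an immediate early transcription factor, fell from 409, 405 and 385 CPM and 210.2, 197 and 202 in wild type to 53.5, 58.7 and 55.2 (-2.84, SE 0.062, adjusted p = 3.64e-09). In each of these 5 genes every set 2 library lay below all libraries of both controls. TNFSF15, a cytokine of the tumor necrosis factor family, was the single gene called in opposite directions, at -2.40 against No gRNA and 1.94 against wild type.

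Amino acid and stress response genes were lower than in No gRNA, and most were not called against wild type. The list of ATF4 targets and the unfolded protein response holds genes that cells raise when amino acids run short or proteins misfold. Of its 14 genes, 10 fell and 0 rose against No gRNA, beside 2.40% and 1.74% of all genes. The moderated test called all 14 lower, beside 25.1% of all genes. Against wild type, ATF3 alone was called lower and 0 higher. Against set 1 the median log2 fold change of the list was -1.83, with 11 called lower and 0 higher. ASNS (asparagine synthetase) was at 467, 462 and 486 CPM in No gRNA, 33.9, 40.5 and 40.3 in wild type and 35.3, 37.2 and 34.8 in set 2 (log2 fold change -3.72, SE 0.066, adjusted p = 1.87e-10, and -0.09 against wild type). CHAC1, which degrades glutathione, fell from 65.9, 60.05 and 62.6 CPM to 6.32, 6.02 and 7.70 (-3.24, adjusted p = 6.13e-08), with 4.38, 4.53 and 5.24 in wild type. PHGDH, the first enzyme of serine synthesis, was at -2.14 (adjusted p = 0.0058) and SESN2, a leucine sensor, at -2.10 (adjusted p = 4.51e-06). ATF4 itself had a log2 fold change of -0.58 (moderated adjusted p = 4.85e-08) and was not called. TXNIP, a glucose-responsive inhibitor of thioredoxin, followed the same order, with 1276, 1311 and 1325 CPM in No gRNA, 91.7, 95.7 and 90.95 in wild type and 85.04, 97.7 and 84.8 in set 2 (-3.87, SE 0.055, adjusted p = 1.98e-11). NUPR1, a stress-induced chromatin protein, was at 8.31, 8.86 and 8.06 CPM in No gRNA and at or under 3 counts in every set 2 library, so it was at least 45.4-fold lower.

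Of 18 cytokines and NF-κB targets tested, 12 fell and 0 rose against No gRNA, beside 2.40% and 1.74% of all genes. All 18 lay wholly below No gRNA, beside 29.3% of all genes, and the median log2 fold change was -1.76. Against wild type that median was -0.43, and 2 genes, CXCL8 and CXCL2, were called lower. Against set 1 the median was -1.66, with 9 called lower and 0 higher. CXCL8, the neutrophil chemokine IL-8, was at 1646, 1564 and 1649.6 CPM in No gRNA, 621, 643 and 633 in wild type and 247, 266 and 254 in set 2 (-2.66, SE 0.049, adjusted p = 1.54e-09, and -1.31 against wild type, adjusted p = 0.00739). CXCL2, of the same family, was at 148, 144 and 141 CPM in No gRNA, 78.5, 78.4 and 75.7 in wild type and 23.996, 26.1 and 23.1 in set 2 (-2.56, adjusted p = 2.26e-08). CCL20, a chemokine for CCR6 cells, fell from 8.57, 7.80 and 7.62 to 0.930, 0.753 and 0.496 CPM (-3.44, adjusted p = 6.08e-05), with 1.11, 1.07 and 1.23 in wild type, and CXCL5 from 1.46, 1.53 and 0.965 to 0.302, 0.0597 and 0.132 (-2.96, adjusted p = 0.0234). CXCL5 lost its call without No gRNA replicate 1 or 2 or set 2 replicate 2 or 3 (adjusted p between 0.0665 and 0.164). CSF1, IL1A, IL6, PTGS2, CSF2, IL1B, CXCL3 and CCL2 were the remaining falls, between -2.15 and -1.44. IL1RL1 (the IL-33 receptor) and TNFRSF9 (4-1BB) were among the largest falls of all genes, at -4.41 and -3.84, with wild type means of 0.723 and 1.95 CPM against 0.467 and 0.593 in set 2. TNFRSF9 lost its call without set 2 replicate 1, 2 or 3 (adjusted p between 0.079 and 0.0868). In the interferon list 2 of 23 were called lower, XAF1 (-1.66, adjusted p = 0.0398) and BST2 (-1.54, adjusted p = 0.0202), and in the MHC class I list 0 of 10 were called. Neither XAF1 nor BST2 was called lower against wild type. By the moderated test 10 of the 23 interferon genes were lower and 1 higher, beside 25.1% and 27.3% of all genes. XAF1 lost its call without No gRNA replicate 1, 2 or 3 or set 2 replicate 1, 2 or 3 (adjusted p between 0.0844 and 0.165). BST2 lost its call without No gRNA replicate 2 or set 2 replicate 1 or 2 (adjusted p between 0.074 and 0.136).

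The other large falls by the same rule were in SLC14A1 (a urea transporter), ANKFN1 and PIEZO2 (a mechanically gated channel), at -4.60, -4.43 and -3.75 (adjusted p = 3.91e-04, 0.00146 and 0.0139). None was called against wild type. The readthrough model ENSG00000255730, which spans TMEM91 and BCKDHA, was at 8.26, 9.32 and 10.2 CPM in No gRNA and 0, 2.87 and 0 in set 2, where 2 libraries held 0 and 1 did not, and its log2 fold change of -5.97 had an SE of 1.14. ENSG00000255730 lost its call without set 2 replicate 1 or 3 (adjusted p between 0.124 and 0.141).

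**Figure D3:**
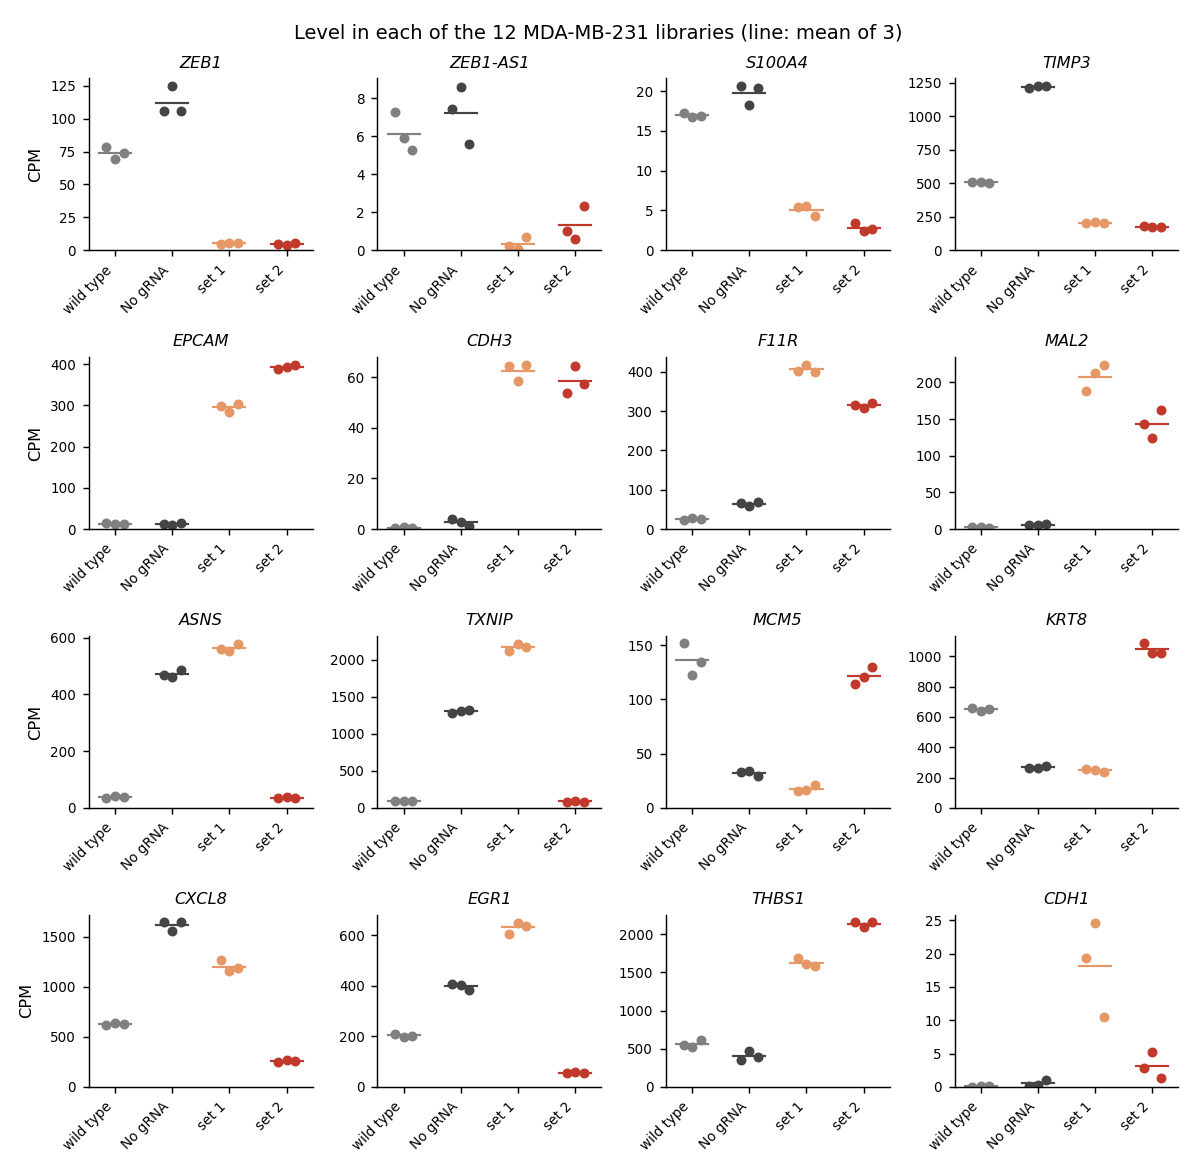
CPM (vertical axis, from 0) of 16 genes in the 3 libraries each of wild type, No gRNA, set 1 and set 2, with a line at each mean. EPCAM, CDH3, F11R and MAL2 are high in both targeted sets, whereas ASNS and TXNIP are near 35.8 and 89.2 CPM in set 2, at the level of wild type and far below set 1.

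Replication genes were higher than in No gRNA, and none was called against wild type. Of 16 genes of the G1/S list 9 rose and 0 fell, beside 1.74% and 2.40% of all genes. The moderated test called all 16 higher, beside 27.3% of all genes, and the median log2 fold change was 1.48. Against wild type the median was -0.22 and 0 were called, while against set 1 the same fit called 12 higher. CCNE1 (cyclin E1) rose from 4.68, 4.95 and 5.22 CPM to 19.98, 21.3 and 21.4 (2.07, SE 0.12, adjusted p = 9.27e-05) and CCNE2 from 13.2, 8.98 and 9.91 to 42.5, 34.6 and 33.2 (1.79, adjusted p = 0.00568). MCM5, a subunit of the replicative helicase, rose from 32.9, 33.99 and 29.6 CPM to 114, 120.3 and 129 (1.91, adjusted p = 1.69e-04). MCM4, of the same helicase, rose from 67.6, 76.3 and 71.1 CPM to 231, 236 and 234 (1.71, adjusted p = 1.20e-05). Wild type cells held 152, 122 and 134 CPM of MCM5, and this range overlaps that of set 2. MCM2, MCM3, GINS2, RRM2 and PCNA were the others. Of 13 mitotic genes only PLK1 (polo-like kinase 1) was called, at 1.23 (adjusted p = 0.0161). The moderated test called 12 of the 13 higher, beside 27.3% of all genes. Against wild type PLK1 was at -0.028 on the log2 scale and was not called. PLK1 lost its call without No gRNA replicate 2 or 3 or set 2 replicate 3 (adjusted p between 0.05 and 0.0649).

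DHCR7, the last enzyme of cholesterol synthesis, was the only one of 16 lipid synthesis genes called, at 1.29 (adjusted p = 0.0171). The moderated test called 12 of the 16 higher and 3 lower, beside 27.3% and 25.1% of all genes. Against wild type DHCR7 was at 0.71 on the log2 scale and was not called. DHCR7 lost its call without No gRNA replicate 1 or 2 or set 2 replicate 2 or 3 (adjusted p between 0.0523 and 0.0833). VEGFA was the only one of 15 hypoxia and glycolysis genes called, and it fell from 418, 447 and 470.3 CPM to 179.5, 184 and 168 (-1.33, adjusted p = 0.00424), with 107, 102 and 111 in wild type. Of 17 TGF-β genes PMEPA1, a target that feeds back on SMAD signaling, alone was called. It rose from 60.97, 53.1 and 48.4 CPM to 219.8, 204 and 219 (1.99, SE 0.074, adjusted p = 3.03e-06) and against wild type too (2.82). In the same TGF-β list the moderated test called 3 genes higher and 8 lower, beside 27.3% and 25.1% of all genes. The median log2 fold change of the list was -0.27 against No gRNA and 0.36 against wild type. Among 9 ERBB genes the ligands EREG and NRG1 fell, by 1.32 and 1.26 on the log2 scale (adjusted p = 0.0181 and 0.00983), and neither was called against wild type. EREG lost its call without No gRNA replicate 2 or set 2 replicate 1 or 3 (adjusted p between 0.0801 and 0.106). NRG1 lost its call without set 2 replicate 2 (adjusted p = 0.0591). The NRF2 target (11 genes), YAP and TEAD (13) and KRAB and ZEB1 corepressor (8) lists had 0 called. In the last, TRIM28, the KRAB partner, had a log2 fold change of 0.87 (TREAT adjusted p = 1) and CTBP1, the ZEB1 corepressor, 0.36 (adjusted p = 1). The moderated test called 5 of these 8 corepressor genes higher and 1 lower, beside 27.3% and 25.1% of all genes. Their median log2 fold change was 0.29 against No gRNA and -0.02 against wild type.

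**Figure D4:**
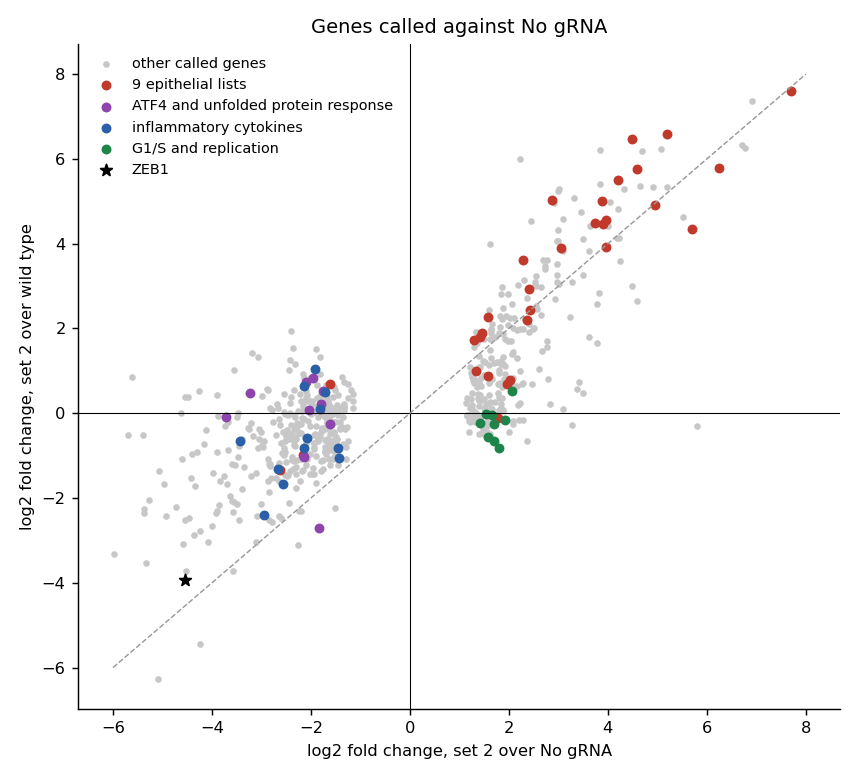
Log2 fold change of set 2 over wild type (vertical axis) against that over No gRNA (horizontal axis) for the 651 genes called against No gRNA, each point a gene, with the same set 2 libraries on both axes and equality as a dashed line. Of the called epithelial genes, 28 lie on the right and 3 (CLDN1, KRT81 and KRT86) on the left. On the vertical axis the called G1/S genes lie between -0.81 (CCNE2) and 0.53 (CCNE1), and those of the ATF4 list between -2.72 (ATF3) and 0.84 (TRIB3).

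ZEB1 was at 4.84, 5.60 and 5.88 CPM in set 1, a range that overlapped that of set 2, and its log2 fold change between the sets was -0.18 (adjusted p = 1). Between the sets 191 genes were called higher in set 2 (1.21%) and 292 lower (1.86%). Of the 118 genes called higher against both controls, 5 were called between the sets, and ZBED2 was one, at 0.564, 0.604 and 0.924 CPM in set 1 (2.85, adjusted p = 0.00211). Of the 21 genes called lower against both controls, 6 were called between the sets. The median log2 fold change of set 2 over set 1 was -0.03 for the 118 genes and -1.34 for the 21. These comparisons share the set 2 libraries as well. The largest differences were of other kinds. PIGR, the polymeric immunoglobulin receptor, was at 10.5, 7.70 and 11.1 CPM in set 1 and 0.257, 0.0991 and 0 in set 2 (-6.47, adjusted p = 1.92e-04). KCNJ12 (an inward rectifier potassium channel), IL24, MMP10 and DHRS2 were also lower in set 2, at -5.49, -5.40, -4.86 and -4.66 (adjusted p = 3.84e-04, 9.80e-05, 2.41e-05 and 1.90e-09), as was the readthrough model ENSG00000255730 (-6.04). Higher in set 2 were MPP4, ORC1 (origin recognition), SKP2 (a ubiquitin ligase subunit that degrades p27), LIG1 (DNA ligase) and MCM5, at 3.81, 3.11, 2.94, 2.86 and 2.78 (adjusted p = 0.0033, 2.34e-06, 4.80e-06, 1.79e-06 and 3.66e-06). For ORC1, SKP2, LIG1 and MCM5 the set 2 means were 23.9, 63.5, 75.1 and 121 CPM, beside wild type means of 26.97, 85.9, 87.3 and 136. The gRNAs and any clones of each set cannot be told apart in this difference.

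The groups also differed in shares that are not specific to any list. Mitochondrially encoded genes took 1.4% to 1.558% of the counts in set 2, 1.965% to 2.428% in No gRNA, 2.192% to 2.24% in wild type and 1.48% to 1.689% in set 1, and their part in the results was not tested. Of 9 markers of other cell types, 7 had too few counts to be tested. CD68, a lysosomal protein used as a macrophage marker, fell from 176, 173 and 164 CPM to 66.5, 69.2 and 66.1 (-1.34, adjusted p = 3.62e-04). Against wild type CD68 was at -0.73 on the log2 scale and was not called. Without CD68 the summed markers were at 3.01 to 3.60 CPM in No gRNA and 0.766 to 1.67 in set 2, and the leukocyte marker PTPRC was at a mean of 0.164 and 0.2003 CPM. In bulk RNA, fewer cells with a transcript and less transcript per cell cannot be told apart.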

How the data were processed

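RNA-seq was analysed in 12 MDA-MB-231 libraries, 3 each of wild type, No gRNA, set 1 and set 2, grouped by their labels. The authors quantified 50 bp single-end reads with Salmon, per the labels on GRCh38, and deposited estimated counts per gene from tximport, corrected for transcript length and not scaled between libraries. The Salmon version, annotation and strandedness are not given in the sources used here. The table holds 57165 genes, of which 56347 matched GENCODE 44. Totals of 15461200 to 17288989 counts limit precision for genes near 3 counts.

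Counts were analysed with R 4.3.3, limma 3.58.1 and edgeR 4.0.16. Genes passing filterByExpr (minimum count 10) were scaled by TMM and fitted by voom (0.5 added per count) over the 12 libraries, without rounding. TREAT tested each contrast, two-sided, for a log2 fold change beyond 1 (adjusted p under 0.05 by Benjamini-Hochberg over all genes tested). The moderated test against 0 came from the same fit. With 3 libraries a group, the smallest exact two-sided permutation p is 0.1. Folds against a group with 3 counts or fewer in each library are bounds against that floor, per library.

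The members and the 29 gene lists were chosen with earlier results of these data known. Named genes were ZEB1 and ZEB1-AS1, 12 called protein-coding genes in each direction by size of change, whose values did not overlap and whose higher group averaged at least 5 CPM, up to 4 called members of each list, and up to 6 genes in each direction called against both controls or between the sets, by the same level rule. Other genes were named after their values were seen. Alternatives were other scalings, filters and tests (DESeq2 1.42.0, edgeR quasi-likelihood, both on rounded counts), the groups compared alone, quality weights, a replicate block, wild type as control, and each library left out. The steps were tested on simulated data. Each promoter was the RefSeq window nearest the Ensembl canonical start, and any listed window was tried as an alternative added after seeing the data. Some genes that these rules select are not reported here.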

Additional observations from a re-analysis of the deposited data

How the results depend on the processing

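Leaving out each library in turn gave 217 to 240 genes higher and 264 to 328 lower against No gRNA, 149 to 182 and 24 to 32 against wild type, 364 to 406 between the sets, 96 to 109 higher and 14 to 20 lower against both controls, a ZEB1 log2 fold change from -4.65 to -4.38 and a share of E-box windows among genes called higher against No gRNA from 26.7% to 30.1%. The moderated test against 0 called 4293 higher and 3942 lower against No gRNA, 2803 and 2906 against wild type, 8098 between the sets and 1491 and 1071 against both controls, with an E-box share of 18.3%. With an absolute log2 fold change over 1 as well, these were 878, 1526, 601, 498, 2235, 289 and 240. The edgeR quasi-likelihood test against 0 gave 4248, 3915, 2835, 2871, 8120, 1439 and 1134, with a share of 18.6%, and glmTreat gave 55 lower against wild type, 741 between the sets and 35 lower against both controls. The E-box share was 59.4% with the wider motif CACCT on either strand and 35.8% with any listed window of a gene, an alternative chosen after seeing the data. With wild type as the control, 35 genes were lower and the E-box share was 46.5%. Tests against 0 ask for less than TREAT by construction, and the cause of the other shifts was not tested.

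The sign turned against wild type for CCNE2 (-0.81), CHAC1 (0.49), CLDN1 (0.68), DHRS2 (0.052), ENSG00000260342 (-0.29), EREG (0.14), FN1 (0.67), LIG1 (-0.22), LOX (0.54), MCM4 (-0.27), MCM5 (-0.16), MPP4 (-1.29), ORC1 (-0.17), PLK1 (-0.028), SESN2 (0.74), SKP2 (-0.44), TNFSF15 (1.94), VEGFA (0.73), VIM (-0.020) and ZEB2 (0.69), as log2 fold changes. ZEB2 also turned with DESeq2 (0.20), with both edgeR tests (0.21) and without set 2 replicate 2 (0.25) or 3 (0.10), with a range from -0.98 to 0.25 as each library was left out.

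Replicate numbers were shared between groups. Over all genes tested, the deviations of same-numbered set 2 and No gRNA libraries correlated at -0.05, 0.02 and -0.04. A correlation over all genes cannot show whether libraries of 1 number were prepared together, since an effect on few genes would not move it. With the replicate number as a block, 268 genes were higher and 367 lower against No gRNA, 188 and 31 against wild type, 458 between the sets and 113 and 20 against both controls, ZEB1 was at -4.54, the E-box share was 27.5% and 5 of 94 named genes lost their call. Fitted on only the groups compared, 234 genes were higher and 340 lower against No gRNA, 97 and 14 against both controls, and 11 of 93 named genes lost their call (BST2, CXCL5, DHCR7, DSC2, ENSG00000255730, ENSG00000260342, FOXA1, PIEZO2, PLK1, SPARC and ZEB1-AS1). Other scalings, filters and weights kept each of these counts within 1.5 times, and upper quartile scaling gave 228 higher and 455 lower against No gRNA. Genes near 3 counts per library are limited by depth.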
